A study of Mus musculus with 12 samples.

Results

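The genes described here carry the names of protein subunits of the mitochondrial respiratory chain and of ATP synthase. They were taken from the gene table by name, as protein-coding rows called mt-, Nduf, Sdh, Uqcr, Cox4 to Cox8 or Atp5, with the assembly factors left out. The names take in Cox7a2l, a factor that joins chain complexes, and miss some chain genes, which are described further below. The rule found 98 of 54532 genes, of which 85 lie in the nucleus and 13 are all the protein genes of the mitochondrial genome. RNA was sequenced from lysates of whole tibialis anterior, the fast muscle along the shin, in 6 knockout libraries labelled FAP no ppary and 6 wild type control libraries. In the knockout, Pparg, the nuclear receptor that drives fat cell formation, was deleted in fibro-adipogenic progenitors (FAPs), mesenchymal cells that reside in muscle and can turn into adipocytes; the labels call the deletion conditional. Every muscle of both groups had been injected with glycerol, an injury that is followed by fat formation in muscle, and was taken at day 5. The label 129svlmJ, given under cell line, is shared by both groups. The allele and the Cre driver of the deletion are not given in the sources used here, and neither are the age and sex of the mice. Whether each library is a different animal is not stated, so the p-values rest on the spread among these libraries, which may be technical.

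The respiratory chain sits in the inner mitochondrial membrane. Complex I (the Nduf genes and the mt-Nd genes) takes electrons from NADH, complex II (the Sdh genes) takes them from succinate, complex III (the Uqcr genes and mt-Cytb) hands them to cytochrome c, and complex IV (the Cox genes and mt-Co1 to mt-Co3) passes them to oxygen. Complexes I, III and IV pump protons, and complex V (the Atp5 genes with mt-Atp6 and mt-Atp8) makes ATP from the gradient. All of them except complex II are built from the products of both genomes, which are transcribed separately, and working muscle fibres are among the cells richest in them.

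Library totals ranged from 15716056 to 29790720 counts. Pparg averaged 26.3 ± 10.2 CPM (counts scaled to library size) in knockout libraries and 57.3 ± 8.26 CPM in control libraries (SD, n = 6 each), a log2 fold change of -1.12 (SE 0.21, edgeR quasi-likelihood test, adjusted p = 0.0299), and the groups did not overlap. The adjusted p lay between 0.0521 and 0.0857 when control 1, 2, 4, 5 or 6 or knockout 3, 4 or 6 was left out. The lysates carried muscle markers in every library: the summed CPM of 8 fibre genes was 14169 to 50192 in knockout libraries and 16901 to 41064 in control libraries. Knockout 6, control 2 and control 6 were the 3 lowest, at 14169, 16901 and 17052 CPM, and no other library was under 32445 CPM. The summed CPM of 8 adipocyte markers was 411 to 1743 in knockout libraries and 2432 to 4229 in control libraries, without overlap, and Fabp4 was the 1 of the 8 called (lower). In whole muscle, fewer cells of a type and less RNA per cell cannot be told apart.

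No respiratory chain gene was called between knockout and control. Of the 98 genes, 95 passed the filter on low counts, and 0 of these 95 had an adjusted p under 0.05 in edgeR's quasi-likelihood test, where 0.799% of all 16393 tested genes did. The count was also 0 with DESeq2 and with limma-voom. At an unadjusted p under 0.05 the count was 3 of 95, all of them nuclear complex IV genes and all lower in knockout muscle, beside 9.47% of all tested genes in either direction and 5.68% lower. It was 7 with the replicate number as a block, which added Sdhd, Ndufv3, Ndufb3 and Cox7b, 6 without the 3 libraries lowest in fibre markers (named above), which added Ndufv3, Ndufb3 and mt-Co2, and 4 without knockout 4, which added Atp5k. In the other alternatives it was 3. The groups overlapped for each of the 95 genes, whereas they did not overlap for 1.43% of all tested genes. The smallest adjusted p was 0.186, for Cox6a1. The genes left untested were Cox7b2, with 1 count in each of 4 libraries, Cox8c, with 1 count in 1 library, and a second row named Atp5o, with no count in any library.

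Although none was called, most of the fold changes had a negative sign, with lower fitted levels in knockout libraries. This held for 85 of the 95 tested genes, where 50.5% of all tested genes were negative. Among the nuclear genes 73 of 82 were negative, with a median log2 fold change of -0.08, and among the mitochondrial genes 12 of 13 were, with a median of -0.29. The median over all tested genes was -0.00. The genes do not count as independent of each other, since they come from the same 12 libraries: knockout 6, a library low in fibre markers, was the lowest of the 12 for 68 of 82 nuclear and 11 of 13 mitochondrial genes. Without knockout 6, 32 of 82 nuclear genes were negative and their median was 0.02. Without all 3 libraries low in fibre markers, 78 of 82 nuclear genes were negative and their median was -0.14.

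**Figure D1:**
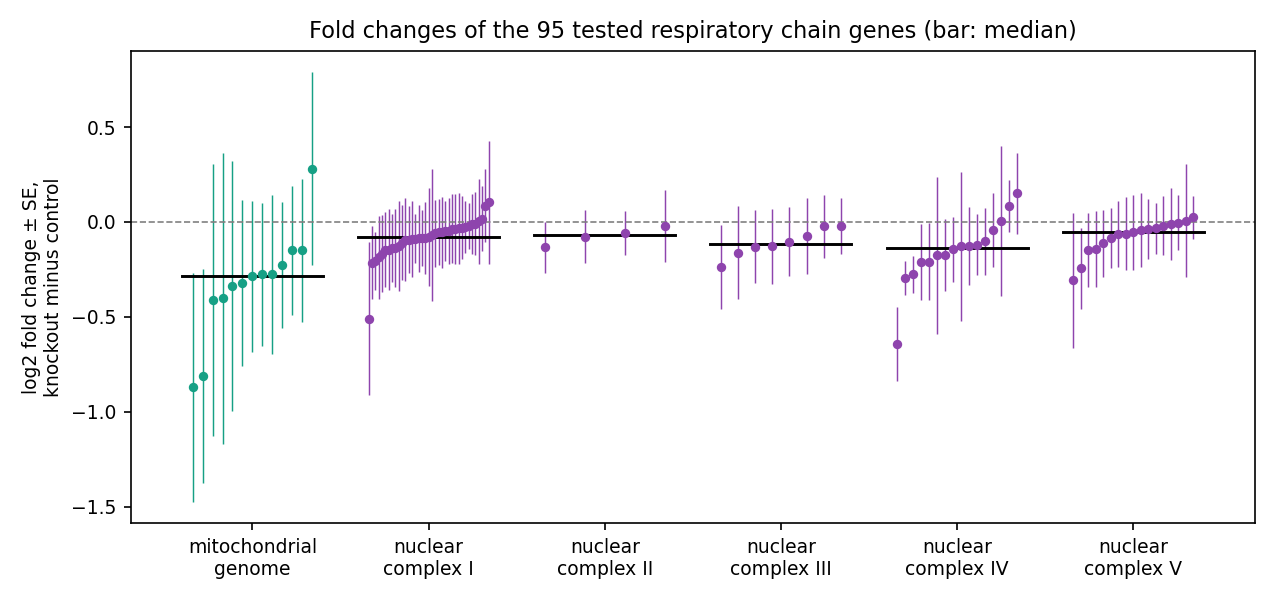
Log2 fold change, knockout minus control, of the 95 tested genes by genome and complex, with standard errors as bars and the median of each class as a black line. The mitochondrial genes carried the widest bars (median SE 0.44, against 0.19 for the nuclear genes), and 85 of the 95 points lie below 0.

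The precision differed between the genomes. For 78 of 82 nuclear genes the 95% interval of the fold change lay within a 2-fold change in either direction, and for 61 of 82 it lay within a 1.5-fold change. For the mitochondrial genes the same held for 3 of 13 and 0 of 13. A 2-fold change of most nuclear subunits was thus outside these intervals, while for 10 of the 13 mitochondrial genes it was not. The spread between libraries of one group was larger than for most genes: the median SD of log2 CPM was 0.83 in knockout and 0.87 in control libraries for mitochondrial genes, and 0.39 and 0.35 for nuclear members. Over the 4141 tested genes at 50 CPM or more, the median SD was 0.17 in knockout and 0.14 in control libraries.

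The share of reads that went to the mitochondrial genes varied 4.05-fold across the libraries and did not separate the groups. The 13 mitochondrial genes took 8.71%, 4.18%, 4.98%, 8.89%, 5.06% and 2.66% of the counts in knockout 1 to 6, and 6.04%, 3.06%, 7.77%, 8.34%, 10.8% and 3.92% in control 1 to 6. The lowest share in either group, 2.66%, was that of knockout 6, and the highest, 10.8%, that of control 5. The 85 nuclear genes took 2.12% ± 0.363 of the counts in knockout libraries and 2.20% ± 0.314 in control libraries (SD, n = 6 each), with a range of 1.70-fold over all 12. The nuclear genes therefore differed less between libraries than the mitochondrial ones.

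The ratio of mitochondrial to nuclear respiratory chain reads was 3.97, 2.18, 2.19, 3.43, 2.27 and 1.74 in knockout 1 to 6, and 2.54, 1.52, 3.13, 3.67, 4.49 and 2.37 in control 1 to 6. Its mean was 2.63 ± 0.867 in knockout and 2.95 ± 1.05 in control libraries (SD, n = 6 each), and all 6 knockout values lay within the range of the controls. The 3 libraries lowest in fibre markers were also the 3 lowest in mitochondrial share. Of the other libraries, knockout 2, 3 and 5 had the lowest fibre sums and also the lowest mitochondrial shares, at 4.18%, 4.98% and 5.06%. The orders were alike but not identical. Knockout 1 and control 1 had nearly equal fibre sums of 39134 and 39172 CPM, but mitochondrial shares of 8.71% and 6.04%. The part of fibre content in the spread was not tested.

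**Figure D2:**
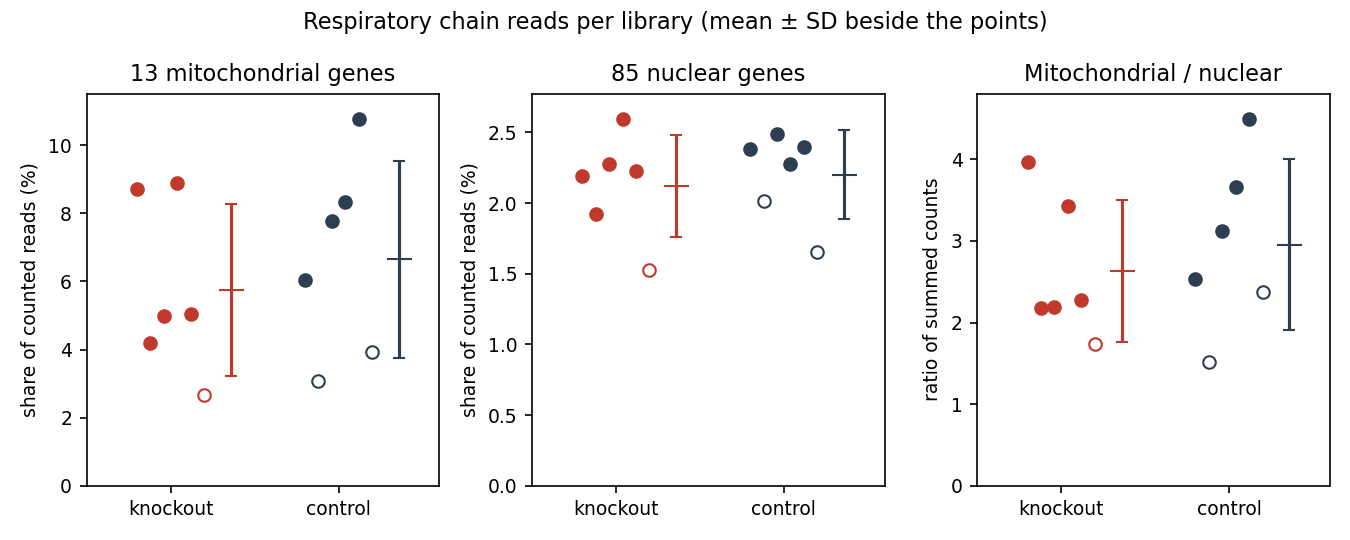
Share of all counted reads (%) taken by the 13 mitochondrial and the 85 nuclear genes, and the ratio of the 2 sums, per library, with mean ± SD beside the points. Open points are the 3 libraries lowest in fibre markers (knockout 6, control 2, control 6). Knockout and control points overlap in all 3 panels.

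The mitochondrial genome encodes the core proton-pumping proteins of the chain, and levels per length put mt-Co1, the catalytic subunit of complex IV, first. It averaged 12654 FPKM (the count divided by gene length and library size) in knockout and 13961 FPKM in control libraries. Next in mean FPKM over all libraries came mt-Nd1, a core membrane subunit of complex I, at 10203 FPKM, and mt-Cytb, the cytochrome b of complex III, at 10008 FPKM. At the other end, mt-Nd4l averaged 82.8 FPKM and mt-Atp8, a small subunit of ATP synthase, 7.99 FPKM. The mitochondrial genome encodes mt-Atp8 and mt-Atp6 on a single transcript with overlapping reading frames, and the same is true of mt-Nd4l and mt-Nd4. mt-Atp6 averaged 982 FPKM and mt-Nd4 4578 FPKM, so FPKM differed widely between genes of the same transcript. The low values of mt-Atp8 and mt-Nd4l thus do not rank their transcripts. mt-Co2, mt-Co3, mt-Atp6, mt-Nd3 and mt-Nd4l, which have near-identical nuclear copies (described below), averaged 1539, 1099, 982, 398 and 82.8 FPKM. Every other mitochondrial protein gene except mt-Atp8 averaged 3005 FPKM or more. The part of read assignment in this order was not tested.

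The stretches where these genes overlap are shown because a read that falls in them belongs to both genes. They are from the plus strand of the mitochondrial chromosome of GRCm38, at chrM:7907-7989 and chrM:10147-10193, and capitals mark the bases annotated to both genes.
mt-Atp8 and mt-Atp6: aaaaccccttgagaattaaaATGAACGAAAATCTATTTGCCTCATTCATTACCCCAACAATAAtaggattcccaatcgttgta
mt-Nd4l and mt-Nd4: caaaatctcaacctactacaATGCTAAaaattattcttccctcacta

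The overlap is 43 bases for mt-Atp8 and mt-Atp6 and 7 bases for mt-Nd4l and mt-Nd4. mt-Atp6 and mt-Co3 overlap by 1 base. mt-Nd5 overlaps by 14 bases with mt-Nd6, which is annotated on the minus strand as the only one of the 13. The sources used here do not give the strand setting of the counting, or how reads that fit 2 genes were treated.

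Copies of mitochondrial DNA in the nuclear genome add a further source of shared reads. For 7 of the 13 genes, 50% or more of all 50-base words of the transcript also occurred in another annotated gene: mt-Co2 (100%), mt-Co3 (99.9%), mt-Atp6 (99.5%), mt-Nd4l (98.8%), mt-Nd3 (98.0%), mt-Nd4 (62.2%) and mt-Co1 (51.1%). The other 6 shared under 10%. Each of the 7 has a whole or partial copy in a row on chromosome 1, between chr1:24611535-24612410, the copy of mt-Nd4 called Gm28439, and chr1:24615706-24616197, a partial copy of mt-Co1 called Gm29216. The words of mt-Co1 were shared mainly with Gm29216 (28.7%) and with Gm13340 on chromosome 2 (27.5%).

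For mt-Co2, which encodes the copper-binding subunit of complex IV that receives electrons from cytochrome c, the copy Gm28661 on chromosome 1 had 0 differing bases over the 681 compared, and the copy Gm13341 on chromosome 2 had 16 over 672. The same 60 bases are shown for the 3 loci, to let the identical and the diverged copy be compared. They lie at chrM:7457-7516 on the plus strand, chr1:24615062-24615121 on the minus strand and chr2:22587471-22587530 on the minus strand of GRCm38. Capitals mark the 6 positions at which Gm13341 differs from mt-Co2.
mt-Co2: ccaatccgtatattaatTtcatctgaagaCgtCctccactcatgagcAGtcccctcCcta
Gm28661: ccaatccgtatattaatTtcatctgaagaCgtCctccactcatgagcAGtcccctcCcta
Gm13341: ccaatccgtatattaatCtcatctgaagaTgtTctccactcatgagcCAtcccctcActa

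A read from the stretch above fits mt-Co2 and Gm28661 equally well. In the deposited counts the share given to Gm28661, out of the reads of mt-Co2 and Gm28661 together, ranged from 18.5% to 50.9% in knockout and from 14.3% to 40.4% in control libraries. For mt-Co3 and its copy Gm28437 the share given to the copy was 15.1% to 60.5% in knockout and 10.6% to 51.5% in control libraries. The copies of the 2 longer genes took little, at most 1.89% for mt-Nd4 and 1.55% for mt-Co1.

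The genes with near-identical copies, together with mt-Atp8, were those whose place within the mitochondrial reads shifted most. As a share of all mitochondrial protein-gene reads, mt-Cytb varied 1.097-fold over the 12 libraries, mt-Nd1 1.11-fold, mt-Nd4 1.20-fold and mt-Co1 1.24-fold. In contrast mt-Co3 varied 7.40-fold, mt-Nd4l 3.64-fold, mt-Co2 3.27-fold, mt-Atp6 2.93-fold and mt-Nd3 2.59-fold. mt-Atp8 varied 7.67-fold, on 397 reads in all 12 libraries. It shares under 10% of its words with other annotated genes but overlaps mt-Atp6. Unannotated copies were not searched for, and mt-Atp8 lies between mt-Co2 and mt-Atp6, which both have copies in the row on chromosome 1. The part of read assignment in these shifts was not tested.

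**Figure D3:**
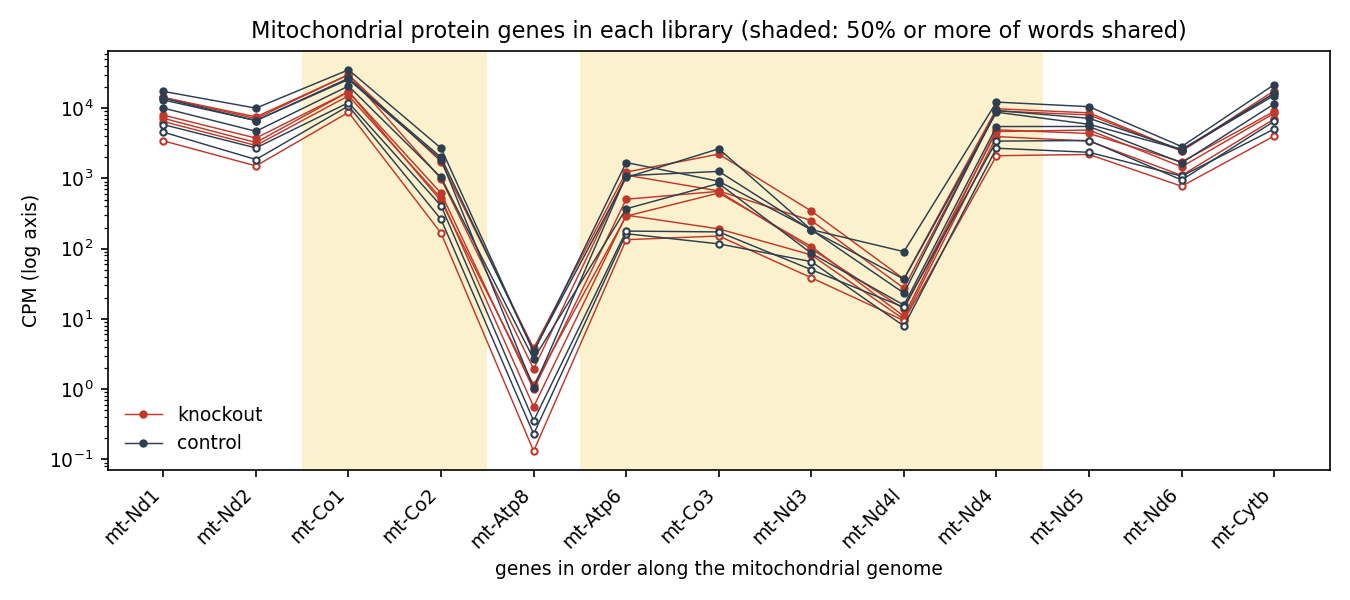
CPM of the 13 mitochondrial protein genes in each of the 12 libraries, on a log axis, in their order along the mitochondrial genome. Each line is a library, open points mark the 3 libraries lowest in fibre markers, and shading marks the 7 genes that share 50% or more of their words with another gene. The lines run nearly parallel over mt-Nd1, mt-Nd2, mt-Co1 and mt-Nd4 to mt-Cytb and cross among mt-Co3, mt-Nd3 and mt-Nd4l.

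Between the groups, mt-Co2 and mt-Nd4l had the largest fold changes of the mitochondrial genes. mt-Co2 ranged from 166 to 1736 CPM with a median of 570 in knockout libraries, and from 261 to 2695 CPM with a median of 1446 in control libraries. Knockout 6 was the lowest of all, control 5 the highest, and the groups overlapped over most of their range. The log2 fold change was -0.87 (SE 0.60, edgeR adjusted p = 0.780).

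mt-Nd4l, a small membrane subunit of complex I, ranged from 9.46 to 37.1 CPM with a median of 12.4 in knockout libraries, and from 7.91 to 90.7 CPM with a median of 19.5 in control libraries. Its fold change of -0.81 (SE 0.56, edgeR adjusted p = 0.780) rested in part on control 5, at 90.7 CPM, and without that library it was -0.12. mt-Nd3, another small complex I subunit, was the single mitochondrial gene with a positive fold change, 0.28 (SE 0.51).

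Among the genes with steady shares of the mitochondrial reads, mt-Nd1 ranged from 3429 to 14237 CPM with a median of 7578 in knockout libraries, and from 4562 to 17356 CPM with a median of 11560 in control libraries, a log2 fold change of -0.28 (SE 0.38). mt-Nd2, also of complex I, had a fold change of -0.32 (SE 0.44), and mt-Co1 one of -0.15 (SE 0.34). With single libraries left out, mt-Nd1 lay between -0.46 (without knockout 1) and -0.08 (without control 5), and mt-Nd2 between -0.54 (without knockout 4) and -0.04 (without control 5). Without control 5, mt-Co1 was at 0.05. In all 3, knockout 6 was the lowest library and control 5 the highest, with the other libraries of both groups mixed between them. Adding the reads of the chromosome 1 copies to their genes gave a median of -0.28 over the 13 genes.

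Complex I, the largest complex, had 37 nuclear members by gene name, Ndufa4 and Ndufa4l2 included, and all 37 were tested. The median log2 fold change was -0.08, 33 were negative and 0 were called. The gene with the smallest p was Ndufv3, a small subunit of the NADH-binding arm, at -0.21 (SE 0.15, edgeR unadjusted p = 0.194, adjusted p = 0.802). It ranged from 64.4 to 124 CPM with a median of 99.1 in knockout libraries, and from 82.5 to 130 CPM with a median of 123 in control libraries. Knockout 6 alone lay below all controls.

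Ndufa12, an accessory subunit of the same arm, had the largest fold change of complex I, -0.51 (SE 0.40, edgeR adjusted p = 0.825). It stood at 44.6, 40.2, 63.1, 30.0, 15.96 and 9.64 CPM in knockout 1 to 6, and at 30.1, 36.9, 66.9, 40.8, 81.0 and 34.8 CPM in control 1 to 6. Knockout 4, 5 and 6 lay below every control, and the other 3 knockout libraries lay among the controls. It shares 17.2% of its words with the annotated gene Gm15920, whose level was 65.7 to 143 CPM in knockout and 63.2 to 108 CPM in control libraries. The sum of Ndufa12 and Gm15920 was 75.4 to 172.6 CPM in knockout and 97.9 to 170.5 CPM in control libraries. In that sum knockout 4 was the highest library, and knockout 5, at 122.3 CPM, lay among the controls. It varied 2.29-fold, where Ndufa12 alone varied 8.40-fold. The part of read assignment in the Ndufa12 fold change was not tested.

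Ndufb3 and Ndufb9, accessory subunits of the membrane arm, had fold changes of -0.22 (SE 0.19) and -0.19 (SE 0.22). Per length, Ndufa2 and Ndufa1 were the most abundant nuclear members of complex I. Ndufa2 averaged 276 FPKM in knockout and 285 FPKM in control libraries, and Ndufa1, an X-linked subunit, 234 FPKM in knockout and 256 FPKM in control libraries. The 2 genes had fold changes of -0.05 (SE 0.17) and -0.14 (SE 0.18), within the spread between libraries.

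Ndufa4 carries a complex I name but is known as a subunit of complex IV, and Ndufa4l2 is its hypoxia-induced relative. Both were counted with complex I, by name, and not with complex IV. Ndufa4 had a log2 fold change of -0.14 (SE 0.21) and Ndufa4l2 one of -0.07 (SE 0.35). Of the FPKM of the pair, Ndufa4l2 made up 7.91% ± 5.11 in knockout and 7.42% ± 5.30 in control libraries (SD, n = 6 each). The share was highest in knockout 6, at 17.2%, and in control 6, at 17.4%, and did not pass 9.49% in any other library.

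Complex II is the one complex with no mitochondrially encoded subunit, and its 4 genes all had small negative fold changes. Sdha, the flavoprotein that oxidises succinate, stood at -0.06 (SE 0.12), Sdhb, the iron-sulfur subunit, at -0.02 (SE 0.19), and the membrane anchors Sdhc and Sdhd at -0.08 (SE 0.14) and -0.13 (SE 0.13). Sdhd had the smallest p (edgeR unadjusted p = 0.335, adjusted p = 0.883). It ranged from 161 to 268 CPM with a median of 243 in knockout libraries, and from 183 to 278 CPM with a median of 266 in control libraries. Knockout 6 was the lowest library for each of the 4 genes and control 6 the lowest control.

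The 8 members of complex III were also all negative, with a median of -0.12. Uqcrb, which lies beside the quinone-binding site, had the smallest p, with a fold change of -0.24 (SE 0.22, edgeR unadjusted p = 0.301, adjusted p = 0.868). It ranged from 81.3 to 233 CPM with a median of 155 in knockout libraries, and from 132 to 229 CPM with a median of 199 in control libraries, so that 2 knockout libraries lay below all controls and 1 above. Uqcrq and Uqcrh, small accessory subunits, stood at -0.16 (SE 0.25) and -0.13 (SE 0.20). The most abundant members per length were Uqcr10, at 389 FPKM in knockout and 423 FPKM in control libraries, and Uqcr11, at 359 FPKM in knockout and 384 FPKM in control libraries.

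Complex IV held the 3 genes with an unadjusted p under 0.05, Cox6a1, Cox8a and Cox4i2, out of 16 tested members. Its median log2 fold change was -0.14, with 13 of the 16 negative. Cox6a1 and Cox8a are the forms of their subunits made in most tissues, and in striated muscle fibres they are largely replaced by Cox6a2 and Cox8b. Cox4i2 is a form of subunit 4 known from lung and from oxygen-sensing cells, where Cox4i1 is the general form.

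Cox6a1 stood at 235.4, 210.4, 208.6, 226.6, 202.7 and 193.2 CPM in knockout 1 to 6, and at 257.3, 321.6, 255.2, 265.9, 245.4 and 221.4 CPM in control 1 to 6. Knockout 2, 3, 5 and 6 lay below every control, and knockout 1 and 4 lay above control 6 alone. The means were 213 ± 15.5 CPM in knockout and 261 ± 33.3 CPM in control libraries (SD, n = 6 each), a log2 fold change of -0.30 (SE 0.09, edgeR unadjusted p = 0.00523, adjusted p = 0.186). Among the alternatives the fold change lay between -0.34 and -0.23, and the smallest adjusted p was 0.0547, with limma-voom.

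Cox8a ranged from 179 to 221 CPM with a median of 196 in knockout libraries, and from 201 to 293 CPM with a median of 240 in control libraries. Knockout 2, 5 and 6 lay below every control, and the highest control was control 2, as for Cox6a1. The log2 fold change was -0.28 (SE 0.10, edgeR unadjusted p = 0.0118, adjusted p = 0.280).

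Cox4i2 was scarce, at 1.72, 1.68, 1.29, 1.097, 1.42 and 2.15 CPM in knockout 1 to 6, and 2.00, 2.21, 2.40, 2.18, 2.48 and 3.40 CPM in control 1 to 6. All knockout libraries but knockout 6 lay below every control. The log2 fold change was -0.64 (SE 0.20, edgeR unadjusted p = 0.0056, adjusted p = 0.194). Among the alternatives its smallest adjusted p was 0.0539, with limma-voom, and it was 0.0963 with DESeq2. Of the FPKM of Cox4i1 and Cox4i2 together, Cox4i2 made up 0.405% ± 0.198 in knockout and 0.58% ± 0.281 in control libraries (SD, n = 6 each). The summed CPM of 4 markers of mural cells, the contractile cells around vessels, was 260 to 337 in knockout and 244 to 326 in control libraries, and 0 of the 4 were called. Their fold changes differed in sign, at -0.25 for Rgs5, -0.48 for Kcnj8, 0.01 for Pdgfrb and 0.28 for Notch3. The summed adipocyte markers were lower without overlap, as given above, while Plin4, Lep and Cfd among them overlapped between the groups. The part of either cell type in these 3 genes was not tested.

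The muscle forms of these subunits had wider errors. Cox6a2 stood at 291, 255.8, 223.3, 349.5, 203.1 and 66.2 CPM in knockout 1 to 6, and at 247.4, 95.6, 332.7, 267.1, 339.1 and 103.2 CPM in control 1 to 6, a log2 fold change of 0.00 (SE 0.39). The low values were those of knockout 6, control 2 and control 6, and the remaining libraries of the groups overlapped. Cox8b had a fold change of -0.13 (SE 0.39), and Cox7a1, the muscle form beside the general Cox7a2, one of -0.18 (SE 0.42), where Cox7a2 stood at -0.10 (SE 0.18). The difference between the fold changes of the general and the muscle forms was not tested.

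Set against its general form, Cox6a2 made up 50.4% ± 12.5 of the FPKM of the pair in knockout and 45.5% ± 14.3 in control libraries (SD, n = 6 each). Cox8b made up 53.8% ± 12.3 of its pair in knockout and 51.0% ± 14.5 in control libraries, and Cox7a1 41.4% ± 9.15 in knockout and 42.9% ± 9.76 in control libraries. The spread within a group was wider than the distance between the means. In each of the 3 pairs the 3 lowest shares belonged to knockout 6, control 2 and control 6. For Cox6a2 these were 26.1%, 23.5% and 32.5%, and no other library was under 49.8%.

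**Figure D4:**
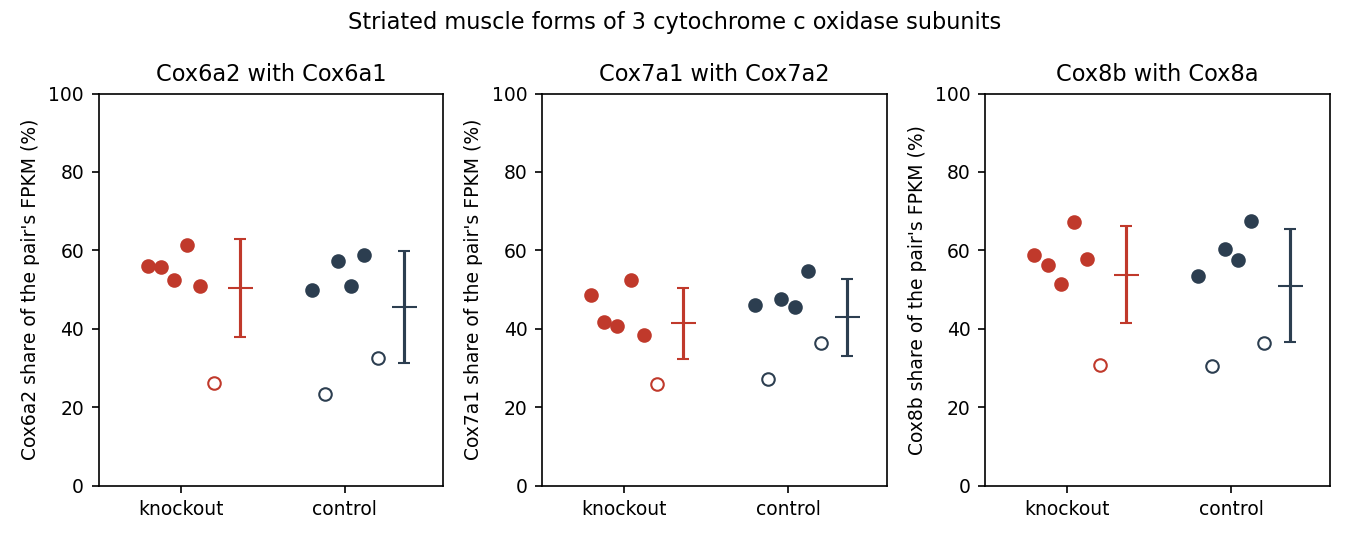
Share of the muscle form in the FPKM of each pair (%), per library, for Cox6a2 with Cox6a1, Cox7a1 with Cox7a2, and Cox8b with Cox8a, with mean ± SD beside the points. Open points are the 3 libraries lowest in fibre markers. They hold the lowest shares in each panel, while the filled points of knockout and control overlap.

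The promoters of 2 general and 2 muscle forms are shown because the forms differed in how they varied between libraries. Over the 12 libraries the general forms Cox6a1, Cox8a and Cox7a2 varied 1.66-fold, 1.64-fold and 2.05-fold, and the muscle forms Cox6a2, Cox8b and Cox7a1 varied 5.28-fold, 5.72-fold and 6.25-fold. The windows run from 250 bases before to 50 bases after the annotated start, from RefSeq on GRCm38.p6, at chr5:115348909-115349208 (minus strand) for Cox6a1, chr19:7217567-7217866 (minus strand) for Cox8a, chr7:30183921-30184220 (plus strand) for Cox7a1 and chr7:140900397-140900696 (minus strand) for Cox8b. Capitals mark matches, on either strand, to motifs of NRF1 (GCGCA and GCGC with 1 base between), ETS factors (CCGGAAG), YY1 (AAGATGGCG), estrogen-related receptors (TCAAGGTCA), a PPAR and RXR pair (AGGTCA repeated after 1 base), an E-box of myogenic factors (CAGCTG) and the TATA box (TATAAA). The motif of estrogen-related receptors contains the repeat unit of the PPAR and RXR motif.
Cox6a1 promoter: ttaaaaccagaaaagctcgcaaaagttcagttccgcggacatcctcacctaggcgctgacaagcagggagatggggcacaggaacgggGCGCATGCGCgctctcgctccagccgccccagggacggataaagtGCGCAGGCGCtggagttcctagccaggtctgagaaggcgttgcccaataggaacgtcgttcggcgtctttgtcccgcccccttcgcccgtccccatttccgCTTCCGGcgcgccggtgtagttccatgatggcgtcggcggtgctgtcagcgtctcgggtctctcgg
Cox8a promoter: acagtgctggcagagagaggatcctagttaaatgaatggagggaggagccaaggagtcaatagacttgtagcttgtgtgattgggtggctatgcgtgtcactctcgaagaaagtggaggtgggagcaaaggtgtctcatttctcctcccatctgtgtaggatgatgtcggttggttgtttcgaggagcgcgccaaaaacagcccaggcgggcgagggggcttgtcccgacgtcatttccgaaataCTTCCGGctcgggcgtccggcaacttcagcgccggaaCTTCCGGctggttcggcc
Cox7a1 promoter: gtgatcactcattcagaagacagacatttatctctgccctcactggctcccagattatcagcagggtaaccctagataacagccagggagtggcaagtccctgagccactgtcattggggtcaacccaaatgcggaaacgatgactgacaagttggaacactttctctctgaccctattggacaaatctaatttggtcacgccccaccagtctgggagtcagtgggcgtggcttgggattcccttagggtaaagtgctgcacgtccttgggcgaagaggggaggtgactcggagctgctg
Cox8b promoter: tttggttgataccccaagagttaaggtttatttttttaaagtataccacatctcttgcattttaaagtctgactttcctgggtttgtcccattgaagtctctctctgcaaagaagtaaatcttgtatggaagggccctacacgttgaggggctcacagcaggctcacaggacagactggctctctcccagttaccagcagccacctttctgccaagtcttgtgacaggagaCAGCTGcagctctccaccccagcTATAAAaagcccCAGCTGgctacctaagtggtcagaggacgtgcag

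Cox6a1 held 2 NRF1 matches and 1 ETS match, and Cox8a 2 ETS matches. Cox8b held 1 E-box before and 1 after the annotated start, and its TATAAA match also lay after that start, by 4 bases. The Cox7a1 window held no match to any of the 7 motifs. The general form Cox7a2, whose window is not shown, held no NRF1, ETS or TATAAA match. No window was found for the muscle form Cox6a2. NRF1 and the ETS factor GABP are textbook regulators of nuclear respiratory chain genes. A window was found for 65 of the 82 tested nuclear members, 70 windows in all. The NRF1 motif occurred in 25.7% of these windows and in 4.60% of all 32851 windows in the table, the ETS motif in 22.9% and 8.86%, and the YY1 motif in 10% and 1.403%. The E-box occurred in 8.57% of member windows and 16.3% of all windows, and TATAAA in 10% and 13.6%. The motif of estrogen-related receptors occurred in 2.86% of member windows and 0.423% of all windows. The PPAR and RXR motif occurred in 0 of 70 member windows and in 0.0396% of all windows, which is too rare for the 0 to be informative. These are matches of letters and do not show binding.

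Of the other members of complex IV, Cox4i1 and Cox6b1 were the most abundant per length. Cox4i1 averaged 523 FPKM in knockout and 566 FPKM in control libraries, a log2 fold change of -0.12 (SE 0.16). Cox6b1 averaged 553 FPKM in knockout and 607 FPKM in control libraries, a fold change of -0.14 (SE 0.17). Cox6b2, a form known from testis, was scarce, at 1.75 to 3.31 CPM in knockout and 1.66 to 3.24 CPM in control libraries, and its fold change of 0.15 (SE 0.21) was within the spread. Cox7c stood at -0.21 (SE 0.20).

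Complex V had 18 members, of which 17 were tested, with a median log2 fold change of -0.06. Per length, the catalytic core genes Atp5a1 and Atp5b were the most abundant, at 473 and 459 FPKM in knockout libraries. Atp5a1 averaged 1491 ± 261 CPM in knockout and 1496 ± 239 CPM in control libraries, and Atp5b 1955 ± 408 CPM in knockout and 1982 ± 318 CPM in control libraries (SD, n = 6 each). Their fold changes were -0.00 (SE 0.15) and -0.02 (SE 0.16). The 95% interval for Atp5a1 ran from -0.32 to 0.31. The signs of these 2 changed when single libraries were left out.

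Atp5g1, Atp5g2 and Atp5g3 encode the same ring subunit of the proton channel from 3 genes. Atp5g3 made up 61.1% ± 2.30 of their summed FPKM in knockout and 61.9% ± 0.482 in control libraries, and Atp5g1 11.8% ± 1.08 in knockout and 11.5% ± 2.77 in control libraries (SD, n = 6 each). The lowest Atp5g1 share, 6.04%, was in control 6, and the others lay between 10.7% and 13.4%. In control 6 the annotated copy Gm10039 stood at 129 CPM, its highest control value, and Atp5g1 at 109 CPM. The sum of Atp5g1 and Gm10039 varied 2.46-fold over the libraries, where Atp5g1 alone varied 4.40-fold. The part of read assignment in this share was not tested. The fold changes of Atp5g1, Atp5g2 and Atp5g3 were 0.01 (SE 0.30), 0.02 (SE 0.11) and -0.01 (SE 0.19).

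Atp5k, a subunit that helps to join ATP synthases in pairs, had the smallest p of complex V, with a fold change of -0.25 (SE 0.21, edgeR unadjusted p = 0.273, adjusted p = 0.854). Atp5e, the epsilon subunit of the central stalk, had the largest fold change, -0.31 (SE 0.35). It stood at 292.4, 48.1, 239.3, 329.5, 223.5 and 137 CPM in knockout 1 to 6, and ranged from 167 to 311 CPM with a median of 287 in control libraries. Knockout 2, at 48.1 CPM, was the lowest by far, and without it the fold change was -0.10. Atp5j2 and Atp5mpl, small membrane subunits, stood at -0.15 (SE 0.19) and -0.14 (SE 0.20).

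Several nuclear members share sequence with annotated copies elsewhere. Among the 82 tested nuclear members 12 shared 20% or more of their 50-base words with another gene, and 38 shared none. Ndufs5, a complex I subunit, was looked at after its values were seen. It stood at 94.4, 32.2, 141, 168, 139 and 82.0 CPM in knockout 1 to 6, and at 140, 74.6, 118, 100.6, 112 and 65.3 CPM in control 1 to 6. BC002163, which holds 31.1% of its words, stood at 61.6, 89.3, 10.2, 3.22, 8.61 and 4.07 CPM in knockout 1 to 6, and at 7.51, 52.6, 80.9, 72.8, 60.9 and 31.0 CPM in control 1 to 6. BC002163 fell into low libraries, at 10.2 CPM or less, and high libraries, at 31.0 CPM or more, and both kinds occurred in both groups. The sum of the 2 genes varied 2.31-fold over the libraries, where Ndufs5 alone varied 5.22-fold.

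Cox7a2l, a factor that joins complexes III and IV, and Gm6969 were also chosen after their values were seen. Gm6969, which holds 17.7% of the Cox7a2l words, was at 0.129 and 0.504 CPM in knockout 1 and 2, at 29.6 to 35.4 CPM in the other 4 knockout libraries, and at 25.4 to 50.7 CPM in control libraries. Cox7a2l itself ranged from 197 to 274 CPM in knockout and from 146 to 267 CPM in control libraries, with no such split, and had a log2 fold change of 0.09 (SE 0.14).

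**Figure D5:**
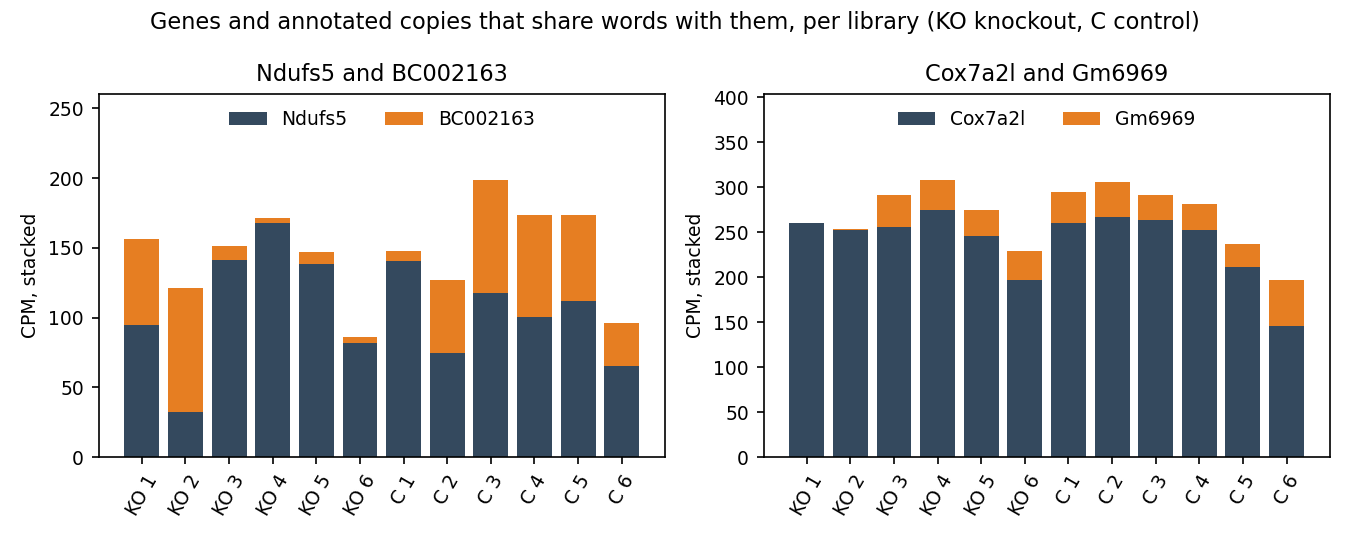
CPM of Ndufs5 with BC002163 and of Cox7a2l with Gm6969, stacked, in each library (KO knockout, C control). BC002163 is at 10.2 CPM or less in knockout 3 to 6 and control 1, and Gm6969 is nearly absent in knockout 1 and 2.

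Genes that work beside the chain were compared in the same fit, and 0 of 197 tested were called, beside 0.799% of all tested genes. The counts of negative fold changes below stand beside 50.5% negative among all tested genes. All of these genes come from the same libraries, so they do not count as independent of each other. Counts with single libraries left out are not given for these lists. In the tricarboxylic acid cycle and its entry enzymes 16 of 17 tested genes were negative, with a median log2 fold change of -0.10. Pcx, pyruvate carboxylase, which is also abundant in adipocytes, ranged from 28.9 to 94.97 CPM with a median of 59.8 in knockout libraries, and from 91.5 to 161 CPM with a median of 117 in control libraries. Its fold change was -1.03 (SE 0.27, edgeR adjusted p = 0.123), and the groups overlapped at their edges.

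Among the carriers, uncoupling proteins and porins of mitochondria, 13 of 15 were tested and 9 were negative, with a median of -0.03. Slc25a1, the citrate carrier, averaged 27.2 ± 6.32 CPM in knockout and 43.5 ± 7.92 CPM in control libraries (SD, n = 6 each), a fold change of -0.67 (SE 0.15, edgeR adjusted p = 0.0700). Slc25a5, the general form of the ADP and ATP carrier, stood at -0.24 (SE 0.09, edgeR adjusted p = 0.391). Of the assembly factors, which build the complexes but are not part of them, 46 of 48 were tested and 31 were negative, with a median of -0.06. Atpaf2, an assembly factor of the ATP synthase core, ranged from 24.0 to 35.8 CPM in knockout and from 35.99 to 45.6 CPM in control libraries, and the groups did not overlap. Its fold change of -0.42 (SE 0.10, edgeR adjusted p = 0.0743) did not pass the threshold.

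Of the mitochondrial ribosomal proteins, which translate the 13 mitochondrial genes, 77 of 78 were tested and 67 were negative, with a median of -0.07. Mrps6 had the smallest p, with a fold change of -0.45 (SE 0.10, edgeR adjusted p = 0.0651). The 28 regulators of mitochondrial gene expression and biogenesis were split between 15 negative and 13 positive, with a median of -0.00, and the smallest p was that of Tfb2m, a mitochondrial transcription factor (fold change -0.13, SE 0.09, edgeR adjusted p = 0.777). Of chain genes outside the naming rule 16 of 18 were tested and 15 were negative, with a median of -0.09. Etfa, which passes electrons from fatty acid oxidation towards the chain, had the smallest p there (fold change -0.24, SE 0.12, edgeR adjusted p = 0.556). The summed adipocyte markers did not overlap between the groups, as given above, and their part in the values of Pcx, Slc25a1 and Atpaf2 was not tested.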

How the data were processed

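RNA was measured in 12 libraries of whole muscle, 6 per group, grouped by their titles. Poly-T beads were used to select messenger RNA, per the labels' protocols, whose text covers stranded and unstranded library types without naming the one made. The authors deposited whole-number read counts per gene, made with fastp, HISAT2 2.0.5 and featureCounts on GRCm38 (mm10), per the submitters' processing notes. FPKM values deposited by the authors were used to compare levels between genes.

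Counts were fitted over all genes with edgeR 4.0.16 in R 4.3.3, using filterByExpr (minimum count 10, minimum total 15), TMM scaling, robust quasi-likelihood tests and Benjamini-Hochberg adjustment over 16393 genes at a threshold of 0.05. Each log2 fold change is knockout minus control, and CPM uses TMM library sizes. As an alternative, the FPKM were tested with limma 3.58.1 as log2 with pseudocounts of 1 and 0.1. Intervals of 95% use the t quantile of the fit. No 2 libraries of a group were duplicates, with chi-square per degree of freedom from 12.9 to 157 between their counts. Alternatives covered scaling, filter, DESeq2 1.42.0, limma-voom, a replicate block and each library left out. Shared words are 50-base stretches of the longest GENCODE M21 transcript.

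Members and lists were chosen with earlier results of these data known. Named genes are Pparg, up to 4 members per complex with the smallest p, the 2 with the highest FPKM, the forms of paralogous subunits, untested members and up to 2 genes of each other list with the smallest p. Other genes named were chosen after their values were seen.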

Additional observations from a re-analysis of the deposited data

Results flagged for a closer look

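In 9 of 114 groups of 6 values tested, 1 library lay apart by Dixon's test at the 95% level. Chance does so in about 1 in 20 groups of normally distributed values. The groups here share libraries and genes and are not independent. Of the 9, 7 concern control 6, a library low in fibre markers. It was the lowest control for Sdha, at 318 CPM where the other controls lay between 405 and 452, and for Cox4i1, at 575 CPM where the others lay between 884 and 1067. It was the highest control for Cox4i2, at 3.40 CPM where the others lay between 2.00 and 2.48. As shares of the FPKM of their families, control 6 had the highest values for Cox4i2 (1.15%), Cox6b2 (0.673%) and Ndufa4l2 (17.4%) and the lowest for Atp5g1 (6.04%). The level of the Atp5g1 copy Gm10039 in control 6 is given above. Knockout 6, also low in fibre markers, had a Cox6a2 share of 26.1% where the other knockout libraries lay between 50.8% and 61.4%. Control 5 had 90.7 CPM of mt-Nd4l where the other controls lay between 7.91 and 36.8. Control 2, the other control library low in fibre markers, was not flagged. What sets the flagged libraries apart was not tested.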

How the results depend on the processing

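No member of either genome was called under any of the alternatives run, including the reads of the chromosome 1 copies added to their genes (chosen after seeing the data). Over all genes the count of calls was 131, and it was 387 with DESeq2, 389 with limma-voom and quality weights, 9 without the 3 libraries lowest in fibre markers (likewise) and 6 to 214 with single libraries left out. Replicate numbers are shared by the groups, and whether they pair the samples is not known. Same-numbered libraries had correlations of deviations from -0.13 to 0.46, and 236 genes were called with the number as a block. Only for knockout 6 was the same-numbered control the closest. Pparg stayed lower but lost its call with no low count filter (-1.12, adjusted p 0.0979), without the 3 libraries (-1.01, adjusted p 0.234) and in 8 of the fits that left out 1 library (-1.32 to -1.002 over all 12).

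Members with fold changes near 0 changed sign. So did some further from 0, among them Cox7a1 (-0.18 with all libraries), mt-Co1 (-0.15) and Cox8b (-0.13). Without the 3 libraries, Atp5g1 was -0.15, Atp5g2 -0.0161, Cox6a2 -0.16 and Ndufa4l2 0.0994. With limma-voom, Cox6a2 was -0.0583, Ndufa4l2 0.0734, Atp5g3 0.0254 and Atp5a1 0.00493. Atp5g3 was 0.00119 with RLE scaling, 0.00706 with upper quartile scaling, 0.00263 with the mitochondrial chromosome left out of scaling and 0.000132 with no filter. Atp5a1 was 0.00579, 0.0113 and 0.00723 with these scalings, 0.00375 with DESeq2 and 0.00416 with no filter. With single libraries left out the ranges were -0.0846 to 0.0846 for Atp5a1, -0.0978 to 0.0702 for Atp5b, -0.18 to 0.12 for Atp5g1, -0.0358 to 0.0868 for Atp5g2, -0.11 to 0.10 for Atp5g3, -0.16 to 0.0694 for Atp5o, -0.16 to 0.20 for Cox6a2, -0.42 to 0.0157 for Cox7a1, -0.32 to 0.0788 for Cox8b, -0.14 to 0.0597 for Ndufa2, -0.24 to 0.21 for Ndufa4l2, -0.12 to 0.0194 for Sdha, -0.11 to 0.0965 for Sdhb, -0.16 to 0.00728 for Sdhc, -0.20 to 0.0162 for Uqcr11 and -0.31 to 0.0494 for mt-Co1. The cause was not tested. The nuclear median ranged from -0.18 to 0.02 and the mitochondrial median from -0.49 to -0.05 with single libraries left out.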

Other observations

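The mitochondrial ribosomal RNA genes, which are not part of the chain, took 0.198% ± 0.0739 of the counts in knockout and 0.217% ± 0.0836 in control libraries (SD, n = 6 each), after selection of messenger RNA. The mitochondrial transfer RNA genes took 0.0279% ± 0.00964 in knockout and 0.0283% ± 0.0102 in control libraries. Of 4 brown fat markers, Cidea and Ppargc1a were tested and not called. Ucp1, the uncoupling protein that lets the chain run without making ATP, was at 0 in 3 libraries and did not pass the low count filter, and Elovl3 did not pass it either.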
